A study of Mus musculus with 8 samples.

Results

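The results concern 10 genes used to recognise fibro/adipogenic progenitors (FAPs) or to divide them into subsets, out of 37991 gene identifiers measured. They are Ly6a, Cd34, Thy1, Dpp4, Pi16, Cd55, Vcam1, Smoc2, Clec3b and Dpt, chosen by name, and each was found once in all 8 libraries. The libraries hold total RNA of FAPs purified, 3 days after glycerol injury, from tibialis anterior muscle of a mixed background strain. Glycerol kills muscle fibres. In FAP-ctrl (n = 5) the cells came from wild type muscle. In FAP-no cilia (n = 3) the primary cilium had been removed by conditional deletion through a floxed allele of Ift88, a gene of intraflagellar transport. The Cre driver, the sort gate, the age of the mice and whether a library is 1 animal or a pool were not given in the sources used here, so p-values measure only the spread between these libraries. The comparison of the groups asks whether these markers differ between FAPs with and without cilia.

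FAPs are mesenchymal cells that lie between muscle fibres and around vessels. After injury they support satellite cells and lay down matrix, and in glycerol-injured muscle they also form fat. They are commonly isolated by surface antigens, above all SCA-1, the product of Ly6a. Fibroblasts that carry Dpp4, Pi16 and Cd55 are known from the adventitia and fascia of many tissues as a progenitor-like subset, while Vcam1 is known as a marker of FAPs in injured and inflamed muscle.

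All values below are normalized read counts, that is, reads of a gene divided by a size factor of the library. A difference is the group mean of log2(value + 1) in FAP-no cilia less that in FAP-ctrl, with its standard error (SE) from a limma-trend fit over 14768 genes, and adjusted p-values are Benjamini-Hochberg values over all of them with a threshold of 0.05. Means are given with the standard deviation (SD). Gene reads numbered 25.2 to 43.9 M per FAP-ctrl library and 15.3 to 29.5 M per FAP-no cilia library. Ift88 was lower in every FAP-no cilia library, at 527 ± 58.4 (n = 5) against 243 ± 69.3 (n = 3). Its log2 difference was -1.14 ± 0.17, with an adjusted p of 0.0895 by limma-trend. Read from Xist and 4 Y-linked genes, all 3 FAP-no cilia libraries and FAP-ctrl 1 and 2 were male, and FAP-ctrl 3, 4 and 5 were female. All 11 defining fibroblast and FAP markers were detected in every library, with Pdgfra at 33773 to 51005 and a log2 difference of -0.03 ± 0.15. Markers of satellite cells summed to 192 to 304 per FAP-ctrl library and 108 to 225 per FAP-no cilia library, and those of muscle fibres to 64.7 to 155 and 18.9 to 66.6. Of 7 satellite cell and 6 fibre markers, 2 of each were tested, all lower and 0 called. Itga7, an integrin of muscle cells, read 212 ± 22.8 and 129 ± 38.4 without overlap, Ttn (titin) 80.3 ± 35.9 and 30.3 ± 25.4, and Pax7, the defining satellite cell gene, at most 5.25. The part of muscle cells in the results below was not tested.

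Per kilobase of exon, the 10 genes spanned nearly 3 orders of magnitude. Ly6a, a GPI-anchored surface protein, stood highest at a mean of 34582 normalized reads per kb over the 8 libraries. Dpt, the matrix protein dermatopontin, followed at 4898 and Thy1, a GPI-anchored member of the immunoglobulin superfamily, at 2596. Vcam1, an adhesion receptor for leukocyte integrins, stood at 1533, Smoc2, a secreted calcium-binding matricellular protein, at 1412 and Cd34, a surface sialomucin, at 1027. Clec3b, which encodes the plasminogen-binding protein tetranectin, stood at 306 per kb, and Cd55, which encodes decay-accelerating factor, an inhibitor of complement, at 141. Dpp4, a surface dipeptidase, and Pi16, a protein of the CAP family, were lowest at 56.4 and 37.4 per kb. Among all tested genes Ly6a lay at the 96.5th percentile of level per kb and Pi16 at the 29.7th.

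The order was clear at 4 of its 9 steps. The library ranges per kb did not overlap between Ly6a (19626 to 62152) and Dpt (3878 to 6413), nor between Dpt and Thy1 (1969 to 3202). They were also apart between Cd34 (920 to 1174) and Clec3b (190 to 450.5), and between Cd55 (103 to 202) and Dpp4 (30.5 to 85.03). The neighbours Thy1 and Vcam1, Vcam1 and Smoc2, Smoc2 and Cd34, Clec3b and Cd55, and Dpp4 and Pi16 overlapped in range and did not separate by their spread. By mean per kb the 3 adventitial markers were the lowest of the 10, although Cd55 and Clec3b did not separate. Ly6a, the antigen most used to sort FAPs, was the highest. The order of these markers and Clec3b depends on exon length, which is 992 bases for Clec3b and 4853 to 6364 for the adventitial markers. Before division by exon length, FAP-ctrl means were 330 for Clec3b, 691 for Cd55, 330 for Dpp4 and 267 for Pi16. The matching FAP-no cilia means were 259, 671, 399 and 189.

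**Figure D1:**
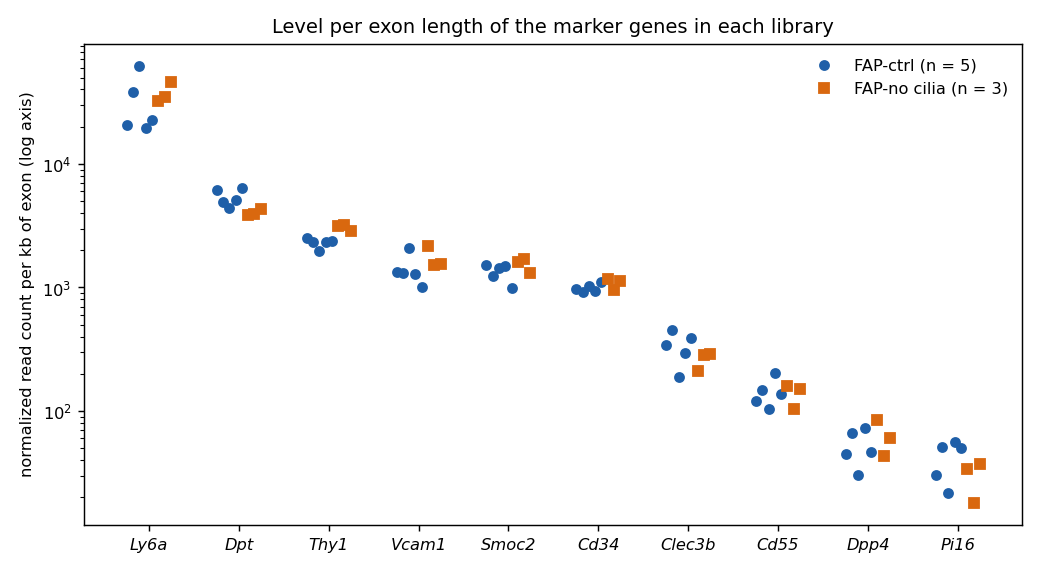
Level of each gene in normalized reads per kilobase of exon on a log axis, 1 point per library, with FAP-ctrl and FAP-no cilia in different colours. Ly6a is the highest at 19626 to 62152 per kb, and Dpp4 and Pi16 are the lowest, between 18.0 and 85.03.

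Ly6a (ENSMUSG00000075602, chr15:74994877-74998031, minus strand, GRCm38) was the most abundant of the 10 and differed more between control libraries than between the groups. Its values were 25060.1, 45653, 74893, 23649 and 27529 in FAP-ctrl 1 to 5, against 39146, 42183 and 55262 in FAP-no cilia 1 to 3. FAP-ctrl 3 was the highest and FAP-ctrl 4 the lowest of all libraries, 3.17-fold apart, and the FAP-no cilia libraries lay between them. The means were 39357 ± 21757 and 45530.3 ± 8563, with a log2 difference of 0.35 ± 0.35 and a 95% interval of -0.43 to 1.13 (limma-trend adjusted p = 0.752).

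Of all tested protein-coding genes with a mean of at least 50, Ly6c1 had the profile most like that of Ly6a, with a root mean square difference of 0.15 in log2 over the 8 libraries after each gene was centred on its mean. Ly6c1 is a neighbouring gene of the same family and read 2859, 5587, 7118, 2618 and 3334 in FAP-ctrl against 5103, 5353 and 7299 in FAP-no cilia. The ratio of Ly6a to Ly6c1 stayed between 7.57 and 10.5 in all 8 libraries. Next in likeness were H2-Q4 (0.19) and H2-K1 (0.20), both class I genes of the major histocompatibility complex. Ly6e, the most abundant of the other Ly6 genes, also peaked in FAP-ctrl 3 (37037) and FAP-no cilia 3 (43075) and was lowest in FAP-ctrl 4 (13868). Of 8 other Ly6 genes listed, 5 were tested, 4 of them higher and 1 lower, and 0 were called, with a median log2 difference of 0.51 beside 0.0077 over all tested genes. That median was 0.19 by DESeq2 and 0.18 by edgeR, and without 1 library it lay between 0.22 (FAP-ctrl 5) and 0.66 (FAP-ctrl 3). Limma-trend gave 0 of the 5 at an unadjusted p under 0.05, and DESeq2 and edgeR called 0.

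Ly6a and Ly6c1 also share sequence, and the counting of reads that match both is not given in the sources used here. Of 1297 windows of 50 bases, the read length, in the Ly6a transcripts of GENCODE M21, 19.0% occurred in a transcript of another gene and 15.0% in Ly6c1. The longest identical stretch of their coding sequences is 48 bases, shown in capitals between lower-case flanks, at coding bases 337 to 384 of Ly6a and 328 to 375 of Ly6c1, counted from the start codon.
Ly6a: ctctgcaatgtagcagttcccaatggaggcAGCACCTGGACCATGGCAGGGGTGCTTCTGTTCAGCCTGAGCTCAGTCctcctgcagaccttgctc
Ly6c1: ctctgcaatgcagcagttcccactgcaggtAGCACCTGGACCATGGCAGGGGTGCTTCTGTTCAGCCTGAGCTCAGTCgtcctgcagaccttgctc
The share of the Ly6c1 value that came from Ly6a reads, or the reverse, was not tested.

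Endothelial cells also carry SCA-1. Of 10 endothelial markers 9 were tested, 7 higher and 2 lower, and 0 were called, with a median log2 difference of 0.34. The 10 summed to 634 to 1016 in FAP-ctrl against 720, 756 and 1683 in FAP-no cilia 1 to 3. The highest sums fell in FAP-no cilia 3 and FAP-ctrl 3, which also held the most Ly6a, but the sum in FAP-ctrl 3 was mostly Tek, a receptor gene at 662 there. Without Tek the sum was 353 in FAP-ctrl 3, within a FAP-ctrl range of 202 to 365, and 1190.1 in FAP-no cilia 3. Cldn5, a tight-junction gene of endothelium, was listed at 0 in 5 libraries and at most at 7.88 elsewhere, and Pecam1 was 324 in FAP-no cilia 3 against 101 in FAP-ctrl 3. The part of endothelial RNA in the Ly6a values was not tested. In bulk RNA, fewer cells of a type and less RNA per cell cannot be told apart, here and for every gene below.

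Cd34 (ENSMUSG00000016494, chr1:194938819-194961279, plus strand) varied least of the 10. It read 7049, 6704, 7426, 6862 and 8021 in FAP-ctrl against 8561, 6993 and 8289 in FAP-no cilia. The groups overlapped, since FAP-no cilia 2 lay among the controls while the other two lay above all of them. The log2 difference was 0.14 ± 0.10, with an interval of -0.08 to 0.35 (limma-trend adjusted p = 0.636). The SD of log2 over all 8 libraries was 0.13, against 0.58 for Ly6a.

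Thy1 (ENSMUSG00000032011, chr9:44043384-44048579, plus strand) showed the smallest p of the 10 and stood higher in FAP-no cilia without passing the threshold of the limma-trend test. Its values were 7575, 6977, 5897, 7053 and 7136 in FAP-ctrl against 9362, 9590 and 8608 in FAP-no cilia. The groups did not overlap, the lowest FAP-no cilia library lying above the highest control. Means were 6928 ± 621 (n = 5) and 9187 ± 514 (n = 3), a 1.33-fold difference with a log2 value of 0.41 ± 0.09 and a 95% interval of 0.20 to 0.62. The unadjusted p was 0.00141, at rank 103 of all tested genes, and the adjusted p by limma-trend was 0.202.

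The call on Thy1 depended on the test. DESeq2 on the recovered reads gave an adjusted p of 0.0140 and edgeR 0.228. Leaving out each library in turn, DESeq2 called Thy1 in 5 of 8 fits, and its adjusted p ranged from 0.00453 to 0.208. The call was lost without FAP-ctrl 4 (0.0523), FAP-no cilia 1 (0.208) or FAP-no cilia 2 (0.192). With sex as a covariate DESeq2 gave 0.682. The log2 difference was 0.34 in that fit, beside 0.41 by DESeq2 with all libraries, and 0.38 to 0.41 in the 3 fits that lost the call. Among the 5 male libraries alone it was 0.34 (limma-trend adjusted p = 0.575). No FAP-no cilia library was female, so this and the fit with sex as a covariate are not separate checks.

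Nr6a1, Hsd17b11 and Got1 had the profiles most like that of Thy1, with root mean square differences of 0.069, 0.070 and 0.071 in log2 over the 8 libraries. Thy1 is also abundant in T cells, and tendon cells can carry it. Of 6 lymphocyte markers 2 were tested, 1 higher and 1 lower, and 0 were called. The 6 summed to 65.4 to 221 in FAP-ctrl against 113 to 300.2 in FAP-no cilia. Cd79a, the lower of the tested markers, read 45.5 ± 6.96 and 28.3 ± 10.4, with a log2 difference of -0.71 ± 0.27 (limma-trend adjusted p = 0.398). The T cell gene Cd3e read 17.7 to 163 in FAP-ctrl against 84.2 to 272 in FAP-no cilia, with a log2 difference of 1.28 ± 0.70 (limma-trend adjusted p = 0.542), while Cd3g and Cd2, also of T cells, stayed at or below 6.52 in every library. The part of T cells in the Thy1 difference was not tested. Of 5 tenocyte markers 4 were tested, all 4 higher and 0 called, and their sum was 1744 to 3576 in FAP-ctrl against 3412 to 5217 in FAP-no cilia. Fmod, a collagen-binding proteoglycan of tendon, read 1575 ± 412 and 2491 ± 183 without overlap (log2 difference 0.70 ± 0.21, limma-trend adjusted p = 0.282), and the tendon transcription factor Scx was at or below 7.88. Tnmd, another of the 4, read 519 ± 117 and 875 ± 360 with overlap (log2 difference 0.70 ± 0.26, limma-trend adjusted p = 0.386). Mkx and Kera differed by 0.30 ± 0.25 and 0.45 ± 0.48. The part of tendon cells in the Thy1 difference was not tested.

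The adventitial markers Dpp4, Pi16 and Cd55 were low and shared their 3 lowest libraries, and none was called between the groups. Dpp4 (ENSMUSG00000035000, chr2:62330073-62412231, minus strand) read 284, 422, 193, 458 and 294 in FAP-ctrl against 537, 274 and 386 in FAP-no cilia. Pi16 (ENSMUSG00000024011, chr17:29317680-29330593, plus strand) read 192, 326, 138, 359 and 322 in FAP-ctrl against 216, 115 and 236 in FAP-no cilia. Cd55 (ENSMUSG00000026399, chr1:130439027-130462744, minus strand) read 587, 716, 502, 978 and 669.9 in FAP-ctrl against 774, 509 and 730.3 in FAP-no cilia. For each of them the 3 lowest libraries were FAP-ctrl 1, FAP-ctrl 3 and FAP-no cilia 2, although for Dpp4 the next library, FAP-ctrl 5 at 294, was close to FAP-ctrl 1 at 284. The groups overlapped in all 3 genes.

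Their differences pointed in different directions, with intervals that all included 0. Dpp4 had a log2 difference of 0.29 ± 0.29 (interval -0.36 to 0.93, limma-trend adjusted p = 0.754), which was 0.04 without FAP-no cilia 1 and 0.53 without FAP-no cilia 2. Pi16 had one of -0.48 ± 0.34 (interval -1.24 to 0.29, limma-trend adjusted p = 0.650), which was -0.15 without FAP-no cilia 2 and -0.69 without FAP-ctrl 3. Cd55 stood at -0.028 ± 0.21 (interval -0.49 to 0.44, limma-trend adjusted p = 0.977), and its sign changed with the analysis, as with FAP-ctrl 4 left out (0.11) or FAP-no cilia 2 left out (0.16). The lowest of these values rested on 64 reads, for Pi16 in FAP-no cilia 2.

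The shared low libraries were noticed in these values and were not a rule set for them. In all, 146 of the 14768 tested genes (0.989%) had the same 3 lowest libraries. Of 20 tested companion genes of the adventitial subset 3 did too, Sema3c, Wnt2 and Efhd1. Gene reads numbered 43.9 M in FAP-ctrl 1, 28.6 M in FAP-ctrl 3 and 15.3 M in FAP-no cilia 2, and the part of depth was not tested. By profile, the genes most like Dpp4 were Sel1l3 (0.19), Sema3c (0.20), which encodes a secreted semaphorin, and Tll1 (0.21), a metalloprotease, and Cd55 ranked 9th at 0.25. Those most like Pi16 were Ptgis (0.25), the prostacyclin synthase, Lin7a (0.26) and Izumo4 (0.26), with Cd55 at rank 22 (0.35) and Dpp4 at rank 300 (0.45).

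**Figure D2:**
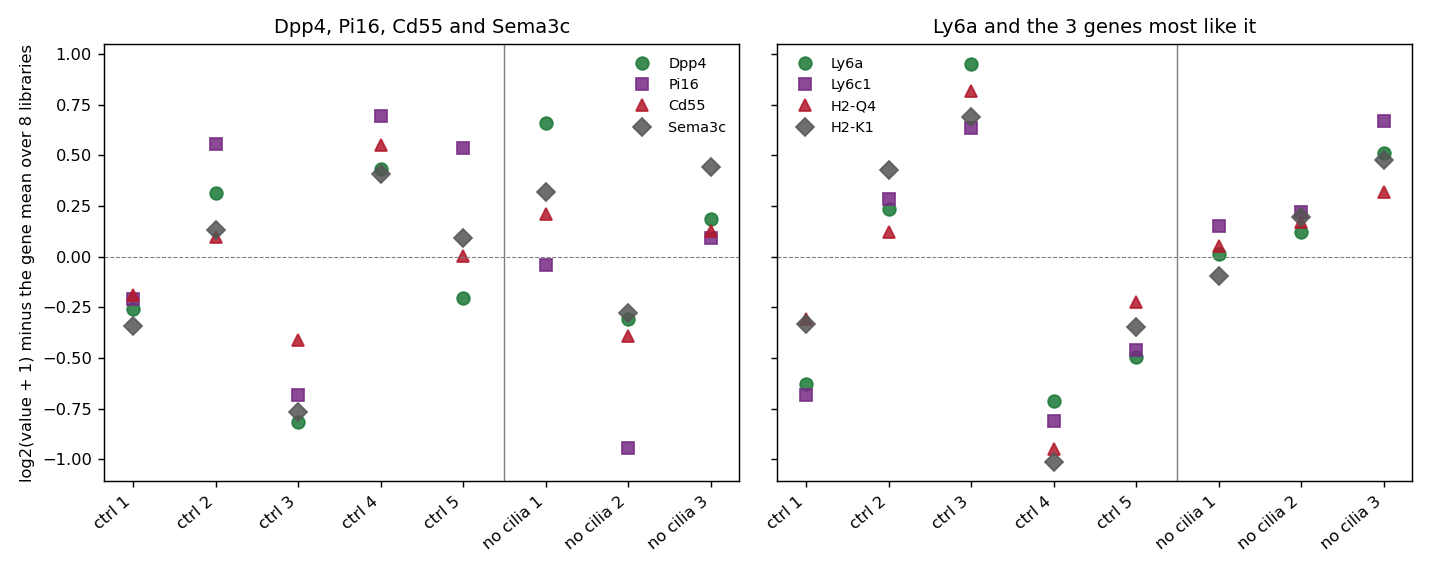
Profiles over the 8 libraries as log2(value + 1) minus each gene's own mean, 1 point per gene and library, for Dpp4, Pi16, Cd55 and Sema3c on the left and for Ly6a, Ly6c1, H2-Q4 and H2-K1 on the right. The genes on the left lie below their means in FAP-ctrl 1, FAP-ctrl 3 and FAP-no cilia 2, and those on the right are lowest in FAP-ctrl 4.

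Because these 3 genes shared their lowest libraries, the 250 bases before the RefSeq start of each are shown (GRCm38.p6, written 5′ to 3′ on the strand of the gene), with matches to the searched motifs in capitals. The windows are chr1:130462745-130462994 on the minus strand for Cd55, chr2:62412232-62412481 on the minus strand for Dpp4 and chr17:29318632-29318881 on the plus strand for Pi16. The Pi16 window lies inside the GENCODE span of the gene, after its start at 29317680, and precedes only the RefSeq start used here.
Cd55: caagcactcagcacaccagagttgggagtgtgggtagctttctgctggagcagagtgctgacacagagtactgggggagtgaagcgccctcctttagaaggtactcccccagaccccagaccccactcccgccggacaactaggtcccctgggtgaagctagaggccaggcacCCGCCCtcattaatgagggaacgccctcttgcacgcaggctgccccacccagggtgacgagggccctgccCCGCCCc
Dpp4: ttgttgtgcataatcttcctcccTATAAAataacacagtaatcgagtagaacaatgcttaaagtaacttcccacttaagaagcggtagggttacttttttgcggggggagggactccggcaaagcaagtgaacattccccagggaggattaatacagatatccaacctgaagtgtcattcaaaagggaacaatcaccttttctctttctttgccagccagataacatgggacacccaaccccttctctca
Pi16: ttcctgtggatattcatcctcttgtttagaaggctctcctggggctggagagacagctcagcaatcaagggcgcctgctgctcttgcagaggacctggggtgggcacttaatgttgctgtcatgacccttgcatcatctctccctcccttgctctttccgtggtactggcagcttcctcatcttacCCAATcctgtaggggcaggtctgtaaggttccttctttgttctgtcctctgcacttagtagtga
Promoters of 5 of the 10 genes were found in the RefSeq table (Cd34, Dpp4, Pi16, Cd55 and Dpt) and searched on both strands for the TATA motif TATAAA, the CCAAT box, the GC-box motif GGGCGG, the STAT-type motif TTCNNNGAA and the GLI-type motif GACCACCCA. The window of Cd55 held GGGCGG on the opposite strand 7 and 77 bases before the start, a motif found in 32.7% of 32851 mouse promoter windows of that length. The window of Dpp4 held TATAAA 227 bases before the start (12.4% of windows), and that of Pi16 held CCAAT 64 bases before it (33.8%). GACCACCCA was in 0 of the 5 windows and in 0.225% of all. No motif was common to the 3 genes, and their GC content was 64%, 43.6% and 52.4% for Cd55, Dpp4 and Pi16, beside a median of 52.4%.

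Reads of Cd55 could in part be placed in Cd55b, a related gene with which it shared 384 of its 4801 windows of 50 bases and an identical coding stretch of 198 bases. Cd55b was listed at 0 in 6 libraries and at no more than 1.82 in the other two. Of 6 other complement regulators listed, 5 were tested, 3 higher and 2 lower, and 0 were called (median log2 difference 0.29, and 0.18 without FAP-ctrl 5). Serping1, the C1 inhibitor, read 20730.0 ± 3520 and 26927 ± 320.3 without overlap, and Cr1l, a membrane regulator of C3 activation in rodents, 2689 ± 214 and 3297 ± 271, also without overlap. Their log2 differences were 0.39 ± 0.14 and 0.29 ± 0.09, with limma-trend adjusted p-values of 0.345 and 0.299. They were 2 of the 5 tested regulators, beside 3.62% of all tested genes that stood higher without overlap.

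Beside Dpp4, Pi16 and Cd55, a list of 21 further genes known from the adventitial subset was read, of which 20 were tested. Of these 12 were higher and 8 lower in FAP-no cilia, with a median log2 difference of 0.12, and 0 were called by limma-trend in either direction (3 higher and 2 lower at an unadjusted p under 0.05, beside 4.68% and 6.09% of all tested genes). DESeq2 called 2 of them higher, beside 0.515% of all. The list was chosen with earlier results of these data known, so these shares do not test it. The median was -0.04 without FAP-no cilia 1, and 0.05 without FAP-ctrl 3. Scara5, a ferritin receptor, read 2638 ± 369 in FAP-ctrl against 4639 ± 652 in FAP-no cilia, with a log2 difference of 0.81 ± 0.13 (limma-trend adjusted p = 0.0895). Ackr3, a scavenging receptor of CXCL12, read 2993 ± 641 and 4965 ± 598, a difference of 0.75 ± 0.16 (limma-trend adjusted p = 0.179). Neither overlapped between groups. Pcsk6 was lower without overlap, at 977 ± 78.5 and 850 ± 45.2 (log2 difference -0.20 ± 0.09, limma-trend adjusted p = 0.461). Without overlap, 2 of the 20 stood higher and 1 lower, beside 3.62% and 3.69% of all tested genes. Tnxb, whose groups overlapped, read 3632 ± 683 and 2828 ± 316, a difference of -0.35 ± 0.15 (limma-trend adjusted p = 0.432). Fbn1 (fibrillin), the most abundant companion per kb, differed by 0.03 ± 0.21.

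A list of 11 genes known from interstitial FAPs marked by Cxcl14 and Col15a1 was read as the counterpart. In FAP-no cilia 8 stood higher and 3 lower (median log2 difference 0.33), and 0 were called by limma-trend (5 higher at an unadjusted p under 0.05), while DESeq2 called 3 higher, Penk, Hsd11b1 and Lpl, against the same shares of all genes (4.68% and 0.515%). The summed level of the list did not overlap between groups, at 100701 to 115621 in FAP-ctrl against 121705 to 130373 in FAP-no cilia. Lpl (means of 36402 and 45717), Lum and Cxcl14 were the largest terms of that sum. By gene, 5 of the 11 stood higher without overlap and 1 lower, beside 3.62% and 3.69% of all tested genes. Penk, the enkephalin precursor, read 456 ± 80.5 and 944 ± 156 (log2 difference 1.05 ± 0.16, limma-trend adjusted p = 0.0895). Hsd11b1, which regenerates active glucocorticoid, read 1045 ± 221 and 1942 ± 261 (0.91 ± 0.17, limma-trend adjusted p = 0.147), and the chemokine Cxcl14 14925 ± 3688 and 22575 ± 4354. Lum, which encodes the proteoglycan lumican, was the member lower without overlap, at 31507 ± 2785 and 27229 ± 584. This list too was chosen with earlier results of these data known, so its shares do not test it. The difference between the 2 lists was not tested.

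Vcam1 and Smoc2 were abundant, higher on average in FAP-no cilia and overlapping between groups. Vcam1 (ENSMUSG00000027962, chr3:116109949-116129688, minus strand) read 11914, 11681, 18485, 11321 and 9019 in FAP-ctrl against 19083, 13576 and 13727 in FAP-no cilia. FAP-no cilia 1 and FAP-ctrl 3 were the highest, and without FAP-ctrl 3 the groups no longer overlapped. The log2 difference was 0.33 ± 0.21, with an interval of -0.13 to 0.79 (limma-trend adjusted p = 0.596), and was 0.17 without FAP-no cilia 1. Smoc2 (ENSMUSG00000023886, chr17:14279506-14404790, plus strand) read 10538, 8612, 9994, 10285 and 6928 in FAP-ctrl against 11223, 11832 and 9111 in FAP-no cilia. FAP-no cilia 3 lay among the controls, and the other two lay above all 5 of them. The log2 difference was 0.22 ± 0.15, with an interval of -0.11 to 0.55 (limma-trend adjusted p = 0.632).

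Since VCAM1 marks FAPs after injury, a list of 13 injury-response genes was read beside it. Of these 9 were higher and 4 lower, 0 were called by limma-trend, edgeR or DESeq2 and none at an unadjusted p under 0.05 in limma-trend, and the median log2 difference was 0.24. Without FAP-no cilia 1, which held the most Vcam1, that median was 0.064. The chemokine Ccl2 read 82576 in FAP-no cilia 1 against 27484 to 56324 in FAP-ctrl and Il6 45893 against 7605 to 18172. Timp1, an inhibitor of metalloproteases, had the smallest p of the list, with a log2 difference of 0.42 ± 0.19 (limma-trend adjusted p = 0.475). Postn, among the 4 lower genes, had the next smallest p, with a log2 difference of -0.65 ± 0.32 (limma-trend adjusted p = 0.503). Its mean was 85940 ± 36326 over the FAP-ctrl libraries against 51115 ± 6462 over the FAP-no cilia ones, with overlap. Macrophages can also carry Vcam1. The sum of 11 macrophage and leukocyte markers, all tested, was 571 to 2532 in FAP-ctrl against 1234, 4233 and 1631 in FAP-no cilia 1 to 3. Of these markers 10 were higher and 1 lower, 0 were called, and the median log2 difference was 0.94. In the male libraries alone the log2 differences of C1qa (-0.35), C1qb (-0.27), Cx3cr1 (-0.12) and Mrc1 (-0.08) were below 0. Those of the other markers were above 0 there, from 0.12 for Lyz2 to 0.71 for Fcgr1. The part of macrophages in the Vcam1 values was not tested.

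The secreted proteins Clec3b and Dpt were lower on average in FAP-no cilia. Clec3b (ENSMUSG00000025784, chr9:123150946-123157432, plus strand) read 340.1, 447, 188, 291 and 385 in FAP-ctrl against 211, 281 and 286 in FAP-no cilia. FAP-ctrl 3 was the lowest of all libraries, so the groups overlapped, and without it they did not. The log2 difference was -0.30 ± 0.25, with an interval of -0.86 to 0.26 (limma-trend adjusted p = 0.701).

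Dpt (ENSMUSG00000026574, chr1:164796644-164824266, plus strand), whose product binds decorin and collagen, read 10583, 8487, 7623, 8864 and 11057 in FAP-ctrl against 6686, 6832 and 7424 in FAP-no cilia. All 3 FAP-no cilia libraries lay below every control, although the highest of them and FAP-ctrl 3 were close. Means were 9323 ± 1448 (n = 5) and 6981 ± 391 (n = 3), and the log2 difference was -0.40 ± 0.13 with a 95% interval of -0.68 to -0.13. The unadjusted p was 0.00887, at rank 427, and the adjusted p was 0.307 by limma-trend, 0.111 by DESeq2 and 0.311 by edgeR. DESeq2 called Dpt in 1 of 8 fits that left out a library, without FAP-ctrl 3 (adjusted p = 0.00952). In the male libraries alone the log2 difference was -0.44 (limma-trend adjusted p = 0.529). Decorin itself (Dcn) differed by 0.09 ± 0.19.

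**Figure D3:**
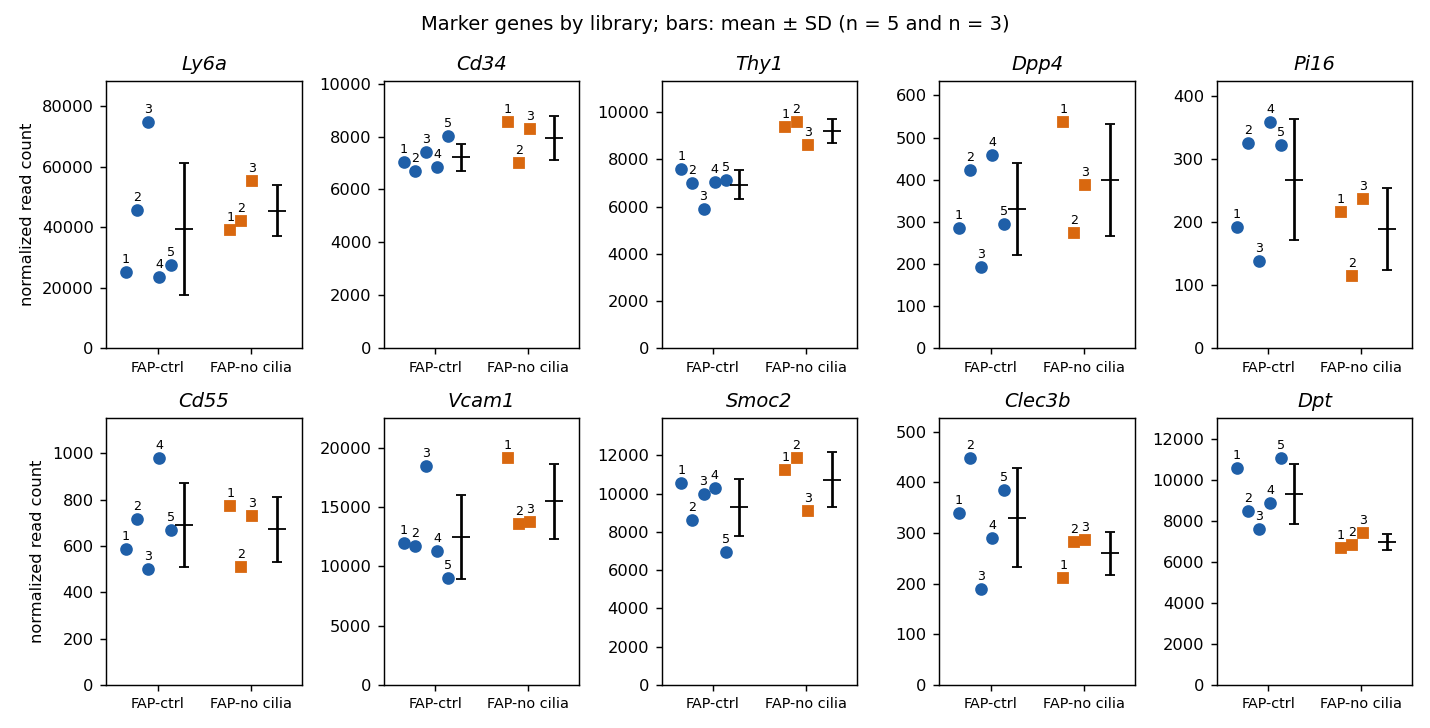
Normalized read counts of the 10 genes in each library, 1 panel per gene with its own axis from 0, points for the 5 FAP-ctrl and 3 FAP-no cilia libraries numbered by replicate, and bars for the mean ± SD of each group. Thy1 and Dpt are the panels in which the groups do not overlap, Thy1 at 8608 to 9590 against 5897 to 7575 and Dpt at 6686 to 7424 against 7623 to 11057.

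Over the 10 genes, 6 log2 differences were above 0 and 4 below, with a median of 0.18, beside 51.5% above 0 and a median of 0.0077 over all tested genes. By limma-trend 0 of the 10 were called, where the share called among all 14768 tested genes was 0.00677%, 1 gene. At an unadjusted p under 0.05 limma-trend gave 1 of the 10 higher (Thy1) and 1 lower (Dpt), beside 4.68% and 6.09% of all genes. edgeR called 0 of the 10 and 0 of all genes, and DESeq2 called 1 of the 10, Thy1, which was higher, beside 1.14% of all genes (0.515% higher and 0.63% lower). Groups did not overlap in 2 of the 10, Thy1 higher and Dpt lower, beside 7.31% of all genes (3.62% higher and 3.69% lower). That count, which cannot fall when a library is left out, was 4 without FAP-ctrl 3 (Vcam1 and Clec3b added) and 3 without FAP-no cilia 2 (Cd34 added) or FAP-no cilia 3 (Smoc2 added). Over the fits that left out each library, the log2 difference lay between 0.35 and 0.46 for Thy1 and between -0.47 and -0.34 for Dpt. It lay between 0.20 and 0.62 for Ly6a, 0.08 and 0.23 for Cd34, 0.12 and 0.33 for Smoc2, and -0.49 and -0.16 for Clec3b. With so few genes these counts do not separate the 10 from the rest.

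**Figure D4:**
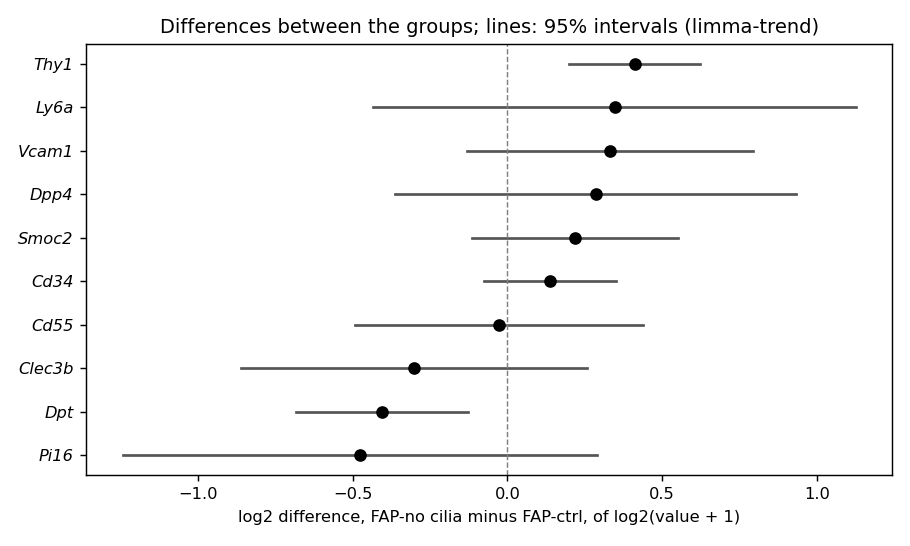
Log2 difference of FAP-no cilia minus FAP-ctrl for each of the 10 genes, with the 95% interval of the limma-trend fit and a line at 0. The intervals of Thy1 (0.20 to 0.62) and Dpt (-0.68 to -0.13) lie off 0, before adjustment over genes, and the other 8 include it.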

How the data were processed

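The deposited values are a signal per gene that the authors made by dividing read counts by DESeq size factors, per the series design text, after alignment with STAR to GRCm38, from stranded total RNA libraries and single-end reads of 50 bases. The read counter and its strand setting were not given in the sources used here, so reads of a gene and an antisense partner (Cd34, Dpp4, Pi16, Cd55 and Vcam1 have one) may not be separable. Whole reads were recovered from the deposited values, 100% of them whole within 0.01 reads. Symbols and exon lengths came from GENCODE M21, which matched 32919 of 37991 identifiers.

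Genes that reached a value of 10 in 3 or more libraries were compared as log2(value + 1) by limma-trend (limma 3.58.1, R 4.3.3) with genotype as the only term. The scale understates differences of low genes. edgeR 4.0.16, DESeq2 1.42.0 and limma-voom were run on the recovered reads, with other pseudocounts, filters and scaling factors, sex as a covariate, the replicate number as a block and each library left out. The male libraries alone, and DESeq2 with sex or without each library, were added after the data were seen. Only the limma-trend test with genotype as its term was checked on simulated data, and the other fits were not. Replicates differed beyond sampling noise in every pair (chi-square per degree of freedom 18.1 to 95.0). The genes and the gene lists were chosen with earlier results of these data known. Genes named besides the 10 were up to 4 of each list by smallest p, up to 3 by level per kb, and the 3 of most similar profile for Ly6a, Pi16, Dpp4 and Thy1. Cd2, Cd3g, Pax7, Cldn5, Pecam1, Scx, Sema3c, Wnt2, Efhd1, Pcsk6, Il6, C1qa, Cx3cr1 and Mrc1 were named in addition after their values were seen.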

Additional observations from a re-analysis of the deposited data

How the results depend on the processing

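Of 218 alternative values of the 10 genes, 205 kept their direction and their side of the threshold, 7 passed it with DESeq2 (6 for Thy1 and 1 for Dpt) and 6 changed sign, all of Cd55. Its log2 difference of -0.028 became 0.0051 with limma-voom, 0.027 with sex as a covariate, 0.027 in the male libraries only, 0.11 without FAP-ctrl 4 and 0.16 without FAP-no cilia 2, in a range of -0.14 to 0.16 over the libraries left out. The cause was not tested. No FAP-no cilia library was female, so the sex covariate gave the same log2 difference as the male libraries alone. These settings are not separate checks, though both are counted among the 218 values and the 6 changes of sign. Whether the replicate numbers pair the libraries cannot be told from these values. Same-numbered libraries correlated at -0.047, 0.248 and 0.079 in their deviations, and unlike-numbered ones at -0.369 to 0.396. With the replicate number as a block, Cd55 stood at 0.15, Ly6a at 0.03, Vcam1 at 0.16 and Pi16 at -0.19, the medians of the Ly6 and complement lists were -0.01 and 0.067, 0 of the 10 were called and 1 gene of all. Of all tested genes 0 were called by edgeR with each of 3 scaling factors and 0 by limma-voom, 169 by DESeq2, 2 in the male libraries and 1 to 3 without each library. Of the 10 genes, 1 was called with DESeq2. The number of the 10 whose groups do not overlap, which cannot fall when a library is left out, was 2 to 4 without each library. Of 319 alternative medians of the gene lists, 24 moved and 18 changed sign. Pi16 had the fewest reads of the 10, so counting error limits it most.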
